A study of Mus musculus with 8 samples.

Results

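The Btg, Tob and sestrin genes, with the p53 effector genes Trp53inp1 and Ccng1, were followed in leukaemic spleen cells sorted by c-kit. The members were all probe sets whose platform annotation gives, as its single symbol, 1 of 10 genes: Btg1, Btg2, Btg3, Tob1, Tob2, Trp53inp1, Sesn1, Sesn2, Sesn3 and Ccng1. Of these, 9 were measured, by 25 probe sets, among 18193 named genes tested. Btg3 has no value here, because its probe set (1449007_at) is annotated with 2 symbols. The cells came from spleens of 4 mice with acute myeloid leukaemia. Its driver was MLL-AF10, in which the histone methyltransferase MLL is fused to AF10. Per the labels, c-kit+ bone marrow stem and progenitor cells had been transduced with a retrovirus, immortalised and transplanted into syngeneic CD57BL/6 recipients (spelled as in the labels) that had received sub-lethal irradiation. Such recipients keep blood cells of their own, and no marker that separates them from leukaemic cells is named in the labels. All 8 arrays come from such leukaemic spleens, with no healthy control. Each mouse gave 1 array of c-kit-high cells, called CD117pos, and 1 of c-kit-negative or c-kit-low cells, called CD117neg, and mice are called by the endings of their array titles, _948, _951, _952 and _953. The labels used here give neither age nor sex of the mice, nor whether the leukaemias arose from separate transductions. Where values are given for each mouse, or with each mouse left out in turn, they stand in the order of these endings.

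Btg and Tob proteins share a conserved amino-terminal domain that binds the CCR4-NOT deadenylase, through which they promote shortening of mRNA poly(A) tails. They slow entry into the cell cycle, and Btg1 and Btg2 are known for keeping lymphocytes quiescent. Sestrins are stress-induced proteins that restrain the growth kinase complex mTORC1 by acting on the GATOR proteins. Several members, among them Btg2, Trp53inp1, Ccng1, Sesn1 and Sesn2, are known targets of the tumour suppressor p53, and Sesn3 is known as a target of FoxO transcription factors.

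Values are array intensities, and differences are CD117pos minus CD117neg on the scale log2(intensity + 16), given ± SE. They were tested with limma with the mouse as a block and called at an adjusted p under 0.05 (Benjamini-Hochberg over all genes). The probe set of highest mean stands for a gene, and intensities of different probe sets are not compared with each other. Of the 9 genes, 4 were lower in CD117pos cells (Btg1, Btg2, Tob1 and Trp53inp1), 0 were higher and 5 did not pass. In the same fit 13.8% of all genes were lower and 8.27% higher, 22.1% in all. Among the 9960 genes of mean intensity 50 or more, fitted on their own, 25.9% were lower and 17.2% higher. All 9 members are among these better expressed genes. The median difference of the 9 genes was -0.31, against -0.01 over all genes. Without mouse _951 the median of the 9 was -0.96, the value of Sesn3, against -0.03 over all genes. With an unadjusted p under 0.05, still 0 members were higher in limma. The counts over all genes were 2511 lower and 1504 higher in the intensities as deposited, 1944 and 2424 after quantile normalisation and 2085 and 1944 after centring on array medians. The count of 4 lower members was the same under both scalings. In bulk samples, fewer cells of a type and less RNA per cell cannot be told apart.

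Kit, the gene of the sorted marker, was higher in CD117pos cells of all 4 mice, by 4.12 ± 0.14, which checks the labels and is no finding. The CD117pos array of mouse _951 stood apart. Its highest correlation of log2 values with another CD117pos array was 0.929, while each of the other 3 reached 0.988 or 0.989, and 1525 genes were more than 1 log2 unit above, and 1067 more than 1 below, the mean of those 3 arrays. Values that leaving out this mouse moved by over 1.5 times are given with and without it for the members. Of 10 myeloid markers, 8 were lower in CD117pos cells (among them Csf1r, Lyz2 and Spi1) and 1 was higher (Mpo, myeloperoxidase of immature granulocytic cells). Their summed intensity was 27944 to 31453 in CD117neg and 10790 to 17412 in CD117pos arrays, a sum that a few strong genes can carry. Their median difference was -1.82, and -1.27, -2.57, -1.35 and -1.36 in the 4 mice. The part of this shift in the members' differences was not tested. With each mouse left out in turn, 3, 8, 5 and 5 myeloid markers were lower.

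Lymphocytes are known for high Btg1 and Btg2, so markers of other blood cells are given beside them. Of 9 T cell markers 1 was lower (Cd28), and their sum was 228 to 592 in CD117neg and 127 to 892 in CD117pos arrays. This count was 0 in 3 of the 14 alternatives, among them that without mouse _953. The T cell receptor complex gene Cd3e lay between 1.86 and 9.41 on all arrays, below every array's median of 27.5 to 32.8. Of 7 B cell markers 1 was lower (Cd22), with sums of 490 to 753 and 174 to 318, and Pax5 lay between 3.33 and 19.0 on all arrays. Of 4 NK cell markers 1 was higher (Klra8, at means of 7.71 and 19.3, below the array medians). This count was 0 in 8 of the 14 alternatives, among them those without mouse _948, _952 or _953. Of 6 erythroid and 6 megakaryocyte and platelet markers, 0 and 0 passed in limma, with 0 and 1 at an unadjusted p under 0.05, and 3 and 4 of them lay below the array median on all arrays. Without mouse _951, 1 megakaryocyte marker was lower. Of 6 dendritic cell markers 1 was lower (Itgax), with sums of 608 to 877 and 212 to 247. Of 8 stromal and endothelial markers 2 were lower (Cxcl12 and Pecam1), with sums of 477 to 1302 and 169 to 838. Over the 14 alternatives 1 to 4 of these were lower.

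Btg2 and Trp53inp1 had the lowest log2 differences of the 9 genes, -3.11 and -3.09, closer together than their SE. Their order turned when mouse _948 or _953 was left out, or when the pseudocount was 64. The probe set that stands for it (1448272_at, Entrez gene 12227) measured 1277, 1403, 1268 and 1378 in the CD117neg arrays of the 4 mice in order, and 136, 73.1, 179 and 210.2 in their CD117pos arrays. All 4 CD117pos arrays lay below all 4 CD117neg arrays, and the CD117neg values lay close together. The means were 1331 ± 69.2 (SD, n = 4) and 150 ± 59.3, a difference of -3.11 ± 0.25 or 8.61-fold (limma adjusted p = 0.00166). The other Btg2 probe set (1416250_at) gave -3.14 ± 0.35 (adjusted p = 0.00419 over all probe sets), with 1011 to 1147 in CD117neg and 29.4 to 179 in CD117pos arrays. Both probe sets were lowest in the CD117pos array of mouse _951. There the difference of the first was -3.99, against -3.09 to -2.62 in the other mice, and without that mouse it was -2.81 (adjusted p = 0.000426).

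Btg1 encodes the closest relative of Btg2. Its representing probe set (1437455_a_at, Entrez gene 12226) measured 3666, 3722, 3944 and 3608 in the CD117neg arrays, in the same order of mice, and 1657, 1113, 1794 and 1808 in the CD117pos arrays. The fractions did not overlap, and mouse _951 again had the lowest CD117pos value. The means were 3735 ± 147 and 1593 ± 327, a difference of -1.25 ± 0.16 or 2.37-fold (limma adjusted p = 0.00551). All 3 Btg1 probe sets passed, at unequal sizes: 1426083_a_at differed by -1.81 ± 0.21 and 1442018_at by -2.70 ± 0.13. The last is the only 1 of the 3 that does not end in _a_at, and it measured 354 to 713 in CD117neg and 35.8 to 111 in CD117pos arrays. The size of the Btg1 difference therefore depended on the probe set, its sign and call did not. With the representing probe sets, Btg2 differed more than Btg1 in all 4 mice, by a mean of -1.86 ± 0.31 (SD, n = 4). The exact permutation test over mice, two-sided, gave p = 0.125, the smallest value that 4 mice allow. The order depended on the Btg1 probe set: 1442018_at differed by -2.90 in mouse _953, beyond the -2.62 of Btg2 there, and by less than Btg2 in the other 3 mice.

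Tob1, a Btg relative that also restrains T cell activation, measured 398, 501, 524 and 519 in the CD117neg arrays and 44.9, 40.5, 60.0 and 86.6 in the CD117pos arrays (1423176_at, Entrez gene 22057). Every CD117pos value was well below every CD117neg value. The difference was -2.79 ± 0.16 or 6.93-fold, with means of 485 ± 58.9 and 58.0 ± 20.8 (limma adjusted p = 0.000589, the lowest among the members). A further Tob1 probe set (1440844_at) lay at or below 21.0 on all arrays, under the array medians. It passed at -0.61 ± 0.12 (adjusted p = 0.0246) but lost the call with a pseudocount of 1 (adjusted p = 0.0598) and without mouse _948 (0.118), _952 (0.0977) or _953 (0.0725). The mean of both probe sets gave -1.70 for Tob1.

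Tob2, the paralog of Tob1, did not follow it. The representing probe set (1448666_s_at, Entrez gene 57259) measured 1210, 1061, 982 and 1234 in the CD117neg arrays and 1150, 1630, 1286 and 1576 in the CD117pos arrays. The ranges overlapped, with mouse _948 slightly lower and the other 3 mice higher in CD117pos cells. The difference was 0.32 ± 0.15, with a 95% interval of -0.05 to 0.68 (limma adjusted p = 0.193). The Tob1 difference was below that of Tob2 in all 4 mice, by a mean of -3.11 ± 0.52 (SD, n = 4). That comparison, 1 of 2 between paralogs, also reached the smallest exact permutation p of 0.125 (adjusted p = 0.125). The 5 Tob2 probe sets did not move as 1: 1448667_x_at gave 0.33 ± 0.14, 1417309_at -0.38 ± 0.15, 1431776_at -0.18 ± 0.12 and 1417310_at 0.82 ± 0.48, and 0 of them passed. The value of the last came from 1 array. It measured 1602 in the CD117pos cells of mouse _951 and 183 to 268 on all the other arrays, and without that mouse the difference was 0.17 ± 0.12. That of 1431776_at was then -0.12 ± 0.12.

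**Figure D1:**
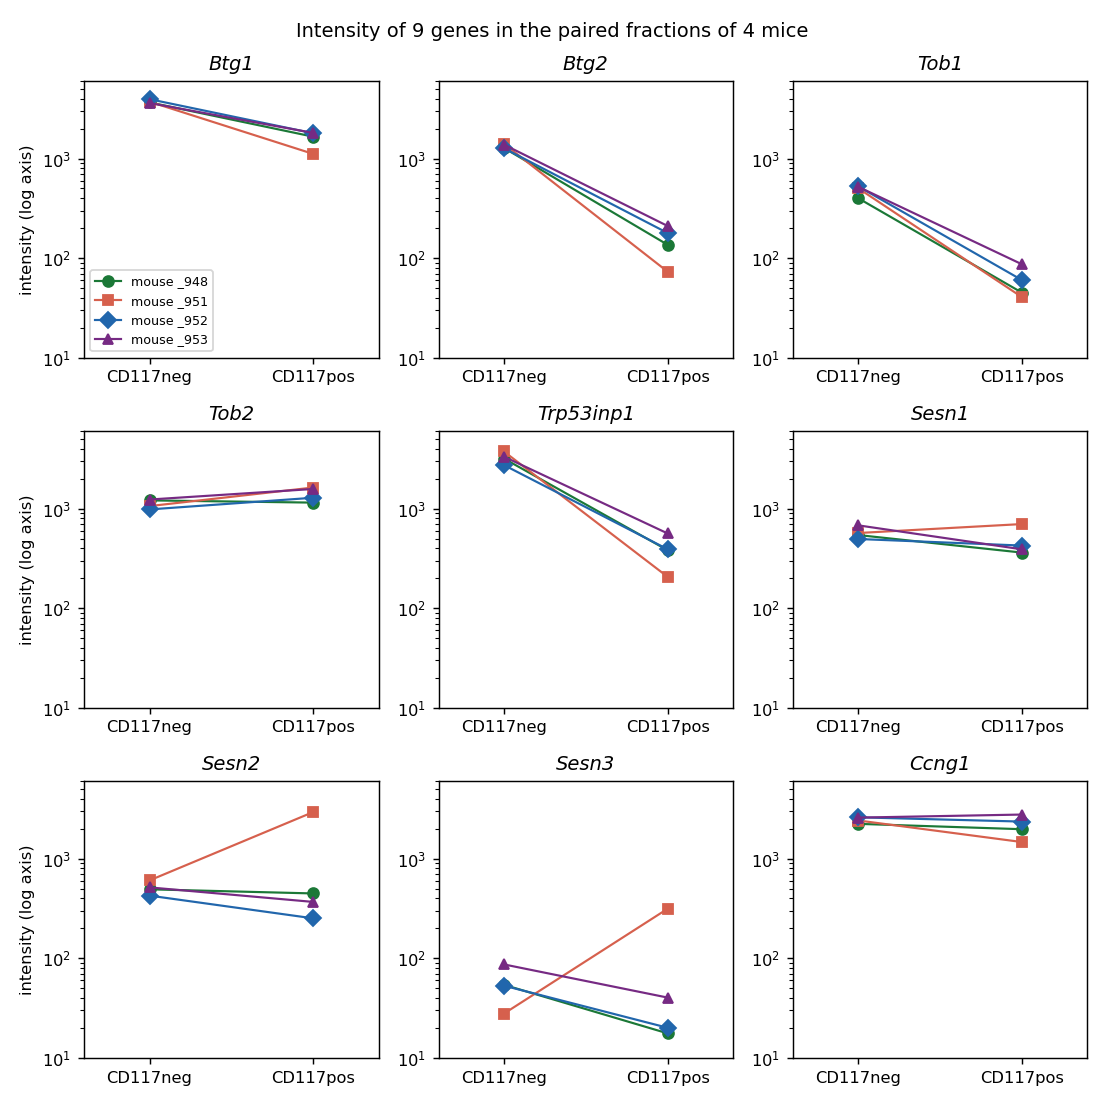
Intensity (log axis) of each of the 9 measured genes, by its representing probe set, in the CD117neg and CD117pos arrays, with a line for each of the 4 mice. Btg1, Btg2, Tob1 and Trp53inp1 go down in every mouse, while Sesn2 and Sesn3 go up only in mouse _951, to 2944 and 315.

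The promoters of the 3 lower Btg and Tob genes are shown beside that of Tob2, which did not pass, because the paralogs differ in the comparison. Each is the 250 bases before the RefSeq gene start, 5′ to 3′ on the strand of the gene (GRCm38.p6). RefSeq windows were found for 9 of the 10 genes. The gene without a window was Trp53inp1, so its promoter was not searched for any motif. Capitals mark matches, on either strand, to the cyclic AMP response element TGACGTCA, the FoxO motif GTAAACA, the TATA box TATAAA, the CCAAT box or the p53 half-site consensus.
Btg1, chr10:96616751-96617000, plus strand: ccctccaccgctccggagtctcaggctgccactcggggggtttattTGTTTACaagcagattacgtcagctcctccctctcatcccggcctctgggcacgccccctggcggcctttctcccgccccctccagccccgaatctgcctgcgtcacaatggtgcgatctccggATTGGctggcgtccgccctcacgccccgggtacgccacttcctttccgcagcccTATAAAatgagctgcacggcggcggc
Btg2, chr1:134079156-134079405, minus strand: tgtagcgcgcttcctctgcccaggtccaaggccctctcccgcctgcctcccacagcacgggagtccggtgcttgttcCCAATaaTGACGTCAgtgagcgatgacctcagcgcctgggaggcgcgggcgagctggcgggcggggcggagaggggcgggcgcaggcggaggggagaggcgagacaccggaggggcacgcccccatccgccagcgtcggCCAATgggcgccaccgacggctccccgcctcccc
Tob1, chr11:94211204-94211453, plus strand: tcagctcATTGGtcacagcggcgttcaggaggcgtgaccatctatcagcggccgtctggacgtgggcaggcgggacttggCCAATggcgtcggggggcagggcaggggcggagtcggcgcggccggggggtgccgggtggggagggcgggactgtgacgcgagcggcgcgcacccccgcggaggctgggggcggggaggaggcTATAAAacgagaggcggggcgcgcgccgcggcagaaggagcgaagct
Tob2, chr15:81858327-81858576, minus strand: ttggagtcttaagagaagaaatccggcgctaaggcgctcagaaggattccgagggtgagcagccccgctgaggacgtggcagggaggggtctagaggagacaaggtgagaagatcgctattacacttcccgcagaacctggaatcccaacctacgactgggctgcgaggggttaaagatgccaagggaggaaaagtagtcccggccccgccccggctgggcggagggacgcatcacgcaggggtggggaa
The Btg2 window holds the full TGACGTCA, from 166 to 159 bases before the start, a match that 1.55% of all 32851 windows of this length hold. The Btg1 window holds the FoxO motif as TGTTTAC, 204 to 198 bases before the start, which 3.17% of all windows hold. Btg1 and Tob1 each hold TATAAA, found in 12.4% of windows, and Btg1, Btg2 and Tob1 each hold the CCAAT box on at least 1 strand, found in 33.8%. In the Tob2 window these letters do not occur. The CCAAT box is also found in the windows of Sesn1, Sesn2, Sesn3 and Ccng1, which did not pass, and of Btg3, which has no value. It therefore does not set the lower genes apart. The p53 half-site, in 7.13% of windows, was found in 1 of the 2 Sesn1 windows and in the Ccng1 window, and in none of the 4 shown. These matches describe letters in a window and are neither binding sites nor causes.

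Among the p53 effectors, Trp53inp1 was lower and Ccng1 did not pass. Trp53inp1 encodes a p53-induced nuclear protein with roles in cell death and autophagy. Its representing probe set (1416926_at, Entrez gene 60599) measured 3183, 3750, 2738 and 3324 in the CD117neg arrays and 383, 207, 391 and 564 in the CD117pos arrays. The fractions were far apart in every mouse. The difference was -3.09 ± 0.27 or 8.53-fold (limma adjusted p = 0.00208), -4.08 in mouse _951 and -3.0 to -2.53 in the other mice. A weak second probe set (1416927_at), at 22.9 to 65.7 and 11.3 to 20.7, gave -0.87 ± 0.17. Its adjusted p was 0.0199, and 0.101 and 0.0958 without mice _948 and _953. The mean of both probe sets gave -1.98 for Trp53inp1.

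Ccng1, encoding cyclin G1, which binds phosphatase 2A and the p53 inhibitor Mdm2, measured 2243, 2423, 2609 and 2591 in the CD117neg arrays and 1981, 1472, 2363 and 2781 in the CD117pos arrays (1420827_a_at, Entrez gene 12450). The ranges overlapped, mouse _951 being lowest and mouse _953 higher in CD117pos cells. The difference was -0.23 ± 0.16, with a 95% interval of -0.63 to 0.17 (limma adjusted p = 0.38). Without mouse _951 it was -0.073 ± 0.12 (adjusted p = 0.704). The other Ccng1 probe sets, 1450016_at and 1450017_at, gave -0.05 ± 0.18 and -0.30 ± 0.22, and 0.13 ± 0.13 and -0.073 ± 0.16 without that mouse. In mouse _951 all 3 probe sets were lower in CD117pos cells, by -0.99 to -0.58, and in mouse _953 all 3 were higher.

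**Figure D2:**
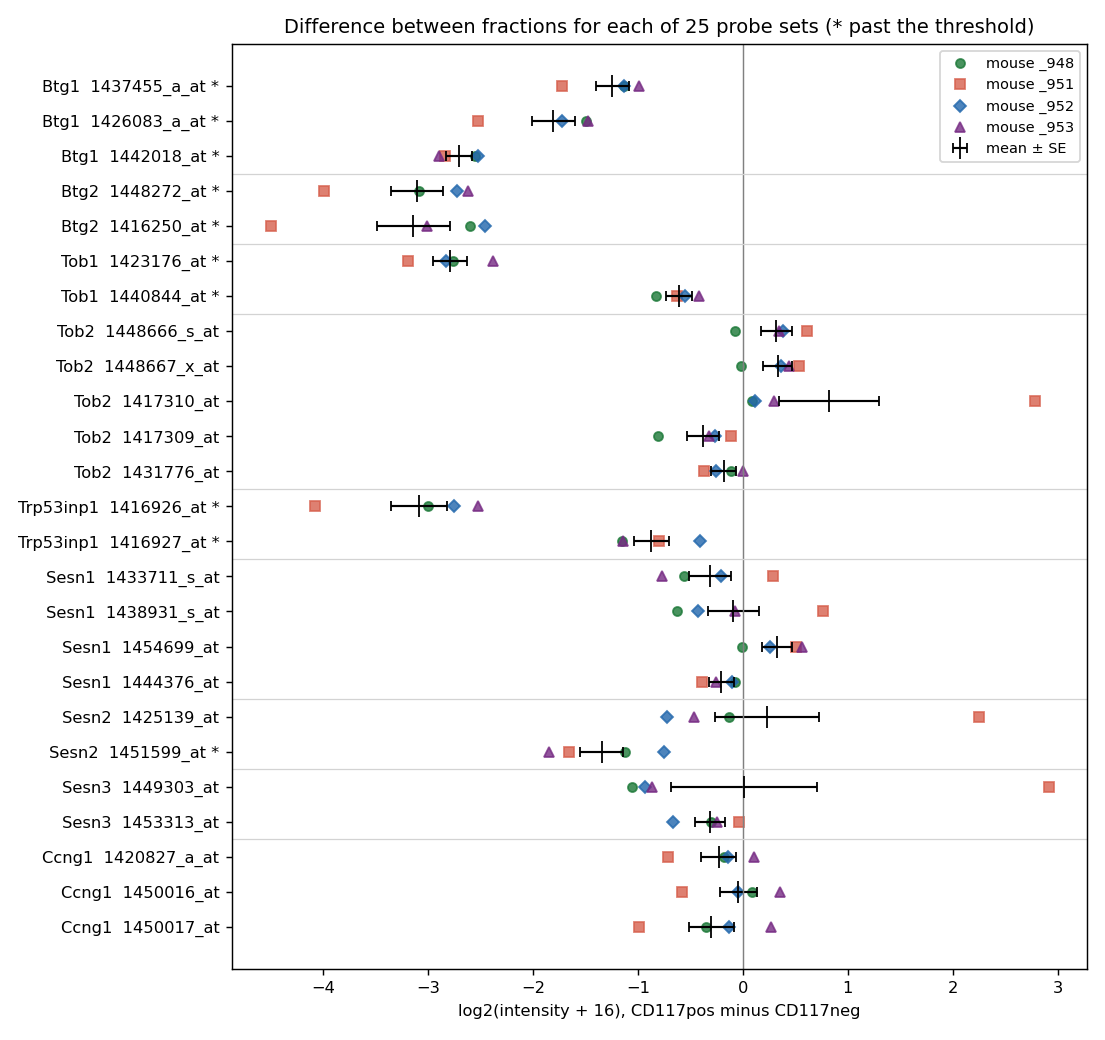
Log2 difference, CD117pos minus CD117neg, of all 25 probe sets of the 9 genes, with a point for each of the 4 mice and a bar for the limma mean ± SE. The 10 probe sets marked with an asterisk passed and lie left of 0, and in Tob2, Sesn2 and Sesn3 1 probe set each of mouse _951 lies far to the right (2.79, 2.25 and 2.91).

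The 3 sestrin genes did not pass by their representing probe sets, and in each only mouse _951 was higher in CD117pos cells. Sesn1, a p53-induced sestrin, measured 543, 569, 496 and 679 in the CD117neg arrays and 362, 700.2, 426 and 390.2 in the CD117pos arrays (1433711_s_at, Entrez gene 140742). It was lower in CD117pos cells in 3 mice and higher in mouse _951. The difference was -0.31 ± 0.20, with a 95% interval of -0.81 to 0.18 (limma adjusted p = 0.332). Without mouse _951 it was -0.52 ± 0.15 (adjusted p = 0.0525), and without the CD117pos array of that mouse and without the block it was -0.52 ± 0.13 (adjusted p = 0.0195). Its other probe sets gave -0.09 (1438931_s_at, -0.38 without mouse _951), 0.33 and -0.21, and 0 of the 4 passed.

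Sesn2, which senses leucine for mTORC1 and is induced by several stresses, measured 493, 606, 426 and 516 in the CD117neg arrays (1425139_at, Entrez gene 230784). In the CD117pos arrays it measured 449, 2944, 252 and 369, so that mouse _951 was far above every other array. The difference over all mice was 0.23 ± 0.51, with a 95% interval of -1.03 to 1.49 (limma adjusted p = 0.793). Without mouse _951 it was -0.44 ± 0.15 (adjusted p = 0.0855). A weak Sesn2 probe set (1451599_at) went the other way in that mouse. It measured 54.4, 49.4, 29.8 and 55.7 in the CD117neg arrays and 16.3, 4.76, 11.1 and 3.86 in the CD117pos arrays, without overlap. It differed by -1.35 ± 0.21 (adjusted p = 0.0108 over all probe sets), and its adjusted p was 0.0558 and 0.0568 without mice _948 and _953. The 2 probe sets of Sesn2 thus disagreed, most of all in mouse _951.

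Sesn3, known as a FoxO target, was weak on most arrays. Its representing probe set (1449303_at, Entrez gene 75747) measured 54.2, 27.9, 53.1 and 86.9 in the CD117neg arrays and 17.6, 315, 20.1 and 40.4 in the CD117pos arrays. Mice _948, _952 and _953 were lower in CD117pos cells, by -1.06, -0.94 and -0.87, and mouse _951 was higher by 2.91. The difference over all mice was 0.01 ± 0.71, with a 95% interval of -1.75 to 1.77 (limma adjusted p = 0.994). Without mouse _951 it was -0.96 ± 0.11 (adjusted p = 0.00385), which made Sesn3 a 5th lower member. Without only the CD117pos array of that mouse, and without the block, it was -0.74 ± 0.29 (adjusted p = 0.0914). The other Sesn3 probe set (1453313_at) lay between 5.26 and 23.3 on all arrays and gave -0.32 ± 0.14.

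**Figure D3:**
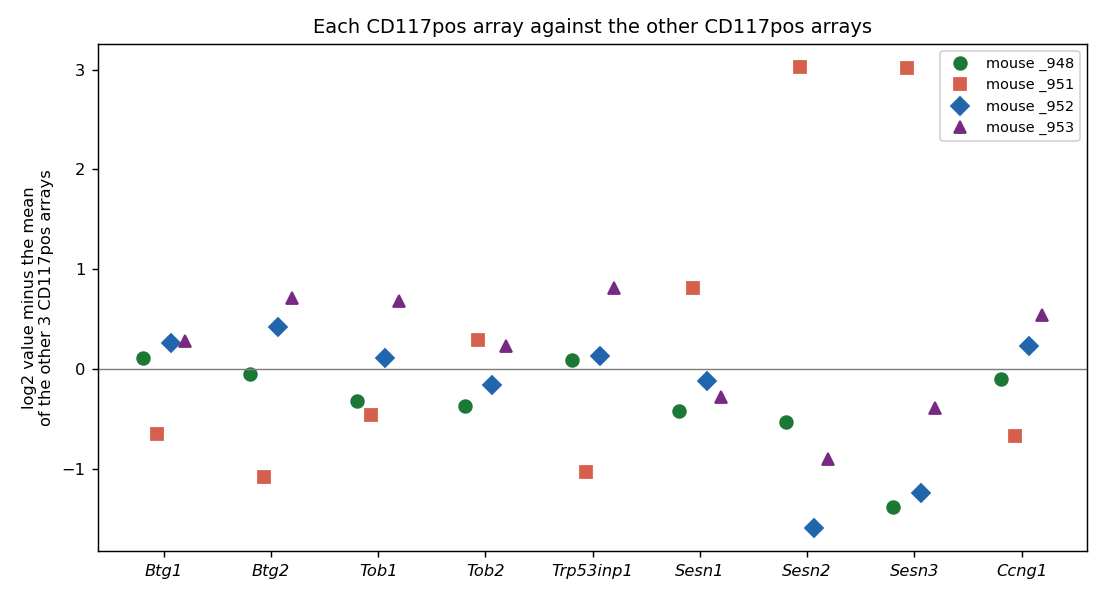
For each of the 9 genes, the log2 value of each CD117pos array minus the mean of the other 3 CD117pos arrays, with a point per mouse. Mouse _951 lies about 3 log2 units above the others for Sesn2 (3.03) and Sesn3 (3.01), and below them for Btg1, Btg2, Tob1, Trp53inp1 and Ccng1.

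Over all 25 probe sets, 10 were lower in CD117pos cells and 0 higher, with 10.9% of all probe sets lower and 5.6% higher in that fit. At an unadjusted p under 0.05, still 0 of the 25 were higher in limma. The 10 were all 3 of Btg1, both of Btg2, both of Tob1, both of Trp53inp1 and the weak Sesn2 probe set. All CD117pos arrays lay below all CD117neg arrays for the 4 lower genes, a pattern that 17.3% of all genes showed. Of the members 0 showed the reverse pattern, against 10.4% of all genes. Differences between the 4 mice were tested by the mouse terms of the limma fit. These terms are shifts common to both fractions. A rise in only 1 fraction of a mouse, as in Sesn2 and Sesn3, is not tested by them. By their representing probe sets 0 members passed (limma moderated F-test), with 0 at an unadjusted p under 0.05 and a lowest unadjusted p of 0.127 for Sesn2. In the fit over probe sets, Btg1 1442018_at had an unadjusted p of 0.00443 in this F-test, and an adjusted p of 0.603. Of all genes 0% passed, with 1386 at an unadjusted p under 0.05.

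By the size and shape of its changes over the 8 arrays, Btg2, taken as the member with the largest difference, was most like Trp53inp1. Likeness was measured as the root mean square difference, over the 8 arrays, between log2 values after each gene's own mean was subtracted, among 8534 other genes of mean intensity over 100. The distance was 0.12 for Trp53inp1, 0.12 for Nabp1 (a single-stranded DNA-binding protein), 0.15 for Kdm6b (a histone demethylase), 0.21 for Nod1 (a sensor of bacterial peptidoglycan) and 0.22 for Atp7a (a copper transporter). Among the members Tob1 followed at 0.27, and Btg1 lay at 0.95. Sesn3, the member with the difference nearest to 0, was most like Slc39a13 (a zinc transporter, 0.31), Gss (glutathione synthetase, 0.32), Ctse (cathepsin E, 0.34), Rassf1 (0.36) and Icam1 (an adhesion molecule, 0.36). In the CD117pos array of mouse _951 these 5 measured 737, 1096, 888, 4401 and 947, and their CD117pos means were 271 ± 311, 374 ± 481, 318 ± 381, 1703 ± 1799 and 324 ± 416. Their likeness to Sesn3, which was high in that array, chose them, so this shared rise is a description and no finding. The values of Sesn2 and Sesn3 were 0.49 apart on the same measure.

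Other genes of the same pathways are given by their counts. Over all genes, leaving out each mouse in turn gave 1207, 2983, 1382 and 1181 lower and 421, 2106, 584 and 416 higher genes, against which the lists' counts are to be read. List shares have a second background in the genes of mean intensity 50 or more, of which 25.9% were lower and 17.2% higher. Of 32 genes of p53, its regulators and its other targets, 12 were lower and 0 higher in limma (37.5% lower, against 13.8% of all genes), 3 being higher at an unadjusted p under 0.05, with a median of -0.29. Plk3, a stress kinase, went from 123 ± 8.94 to 15.0 ± 4.42 (-2.17 ± 0.11), Sulf2, a sulfatase, from 1538 ± 181 to 387 ± 115 (-1.98 ± 0.18) and Fas, the death receptor, from 182 ± 79.6 to 33.6 ± 6.60 (-1.91 ± 0.22). Leaving out each mouse, 8, 12, 9 and 8 of these were lower, and 0 to 4 were higher over the 14 alternatives. These were 3 after quantile normalisation, 1 after centring, 1 with the mean of a gene's probe sets, 3 without mouse _951, 4 without its CD117pos array and the block, and 0 in the others. Of 26 FoxO factors and targets, 8 were lower and 0 higher in limma (30.8% lower), 0 being higher at an unadjusted p under 0.05, with a median of -0.38. Klf2, a factor of quiescence, went from 2402 ± 288 to 328 ± 132 (-2.89 ± 0.28), Trib1, a pseudokinase, from 106 ± 31.2 to 4.16 ± 2.84 (-2.57 ± 0.20) and Bcl6, a repressor, from 2876 ± 303 to 758 ± 776 (-2.33 ± 0.45). Leaving out each mouse gave 3, 11, 5 and 3 lower.

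Of 26 integrated stress response and antioxidant genes, which include regulators of sestrin expression, 10 were lower and 0 higher in limma (38.5% lower), 2 being higher at an unadjusted p under 0.05, with a median of -0.35. Nupr1, a stress-induced chromatin protein, went from 461 ± 153 to 18.9 ± 14.7 (-3.80 ± 0.19), Ddit4, an mTORC1 inhibitor, from 694 ± 432 to 108 ± 34.6 (-2.32 ± 0.32) and Nqo1, a quinone reductase, from 100.1 ± 40.3 to 7.75 ± 1.90 (-2.23 ± 0.23). With each mouse left out 4, 10, 5 and 6 were lower. Over the 14 alternatives 0 to 2 were higher, and the count was above 0 in 8 of them.

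Of 39 measured genes of the GATOR, AMPK and mTORC1 pathway, on which sestrins act, 7 were lower and 3 higher (17.9% and 7.69%), with a median of -0.13. These shares are near the 13.8% and 8.27% of all genes. The 3 with the greatest change all encode subunits of the energy-sensing kinase AMPK: Prkab2 went from 880 ± 128 to 264 ± 25 (-1.67 ± 0.11), Prkag2 from 407 ± 54.4 to 162 ± 77.3 (-1.38 ± 0.25) and Prkab1 from 1591 ± 128 to 739 ± 121 (-1.10 ± 0.16). The median of this list was 0.08 after quantile normalisation, where 5 were lower and 8 higher, and without each mouse in turn 3, 9, 4 and 2 were lower and 0, 2, 0 and 0 higher. Of 20 deadenylation partners of Btg and Tob proteins, 2 were lower and 3 higher (10% and 15%, on few genes), with a median of -0.04. The poly(A)-binding protein gene Pabpc4 rose from 612 ± 54.1 to 1494 ± 109 (1.27 ± 0.12), the arginine methyltransferase gene Prmt1, a Btg partner, from 616 ± 165 to 1429 ± 422 (1.18 ± 0.29) and the deadenylase gene Parn from 245 ± 23.3 to 548 ± 89.4 (1.10 ± 0.16). Its median was 0.10 after quantile normalisation and 0.05 after centring, and without each mouse in turn 2, 5, 2 and 2 were higher and 0, 2, 0 and 0 lower. Without probe sets that end in _a_at, _s_at or _x_at 1 was higher.

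Of 20 partners and paralogs of Ccng1 and Trp53inp1, 9 were lower and 1 higher, with a median of -0.54. These are 45% and 5%, against 13.8% and 8.27% of all genes. Trp53inp2, the paralog of Trp53inp1 with a role in autophagy, went from 435 ± 49.9 to 23.5 ± 11.4 (-3.55 ± 0.16), the autophagy gene Map1lc3a from 1506 ± 324 to 394 ± 77.7 (-1.89 ± 0.17) and the kinase gene Prkcd from 1718 ± 151 to 595 ± 277 (-1.69 ± 0.35). Leaving out each mouse gave 2, 10, 4 and 3 lower and 0, 1, 0 and 0 higher. Ccng2, the paralog of Ccng1, stands on this list and on the FoxO list and was lower, with a difference of -0.88. Of 24 proliferation genes, 8 were higher and 0 lower in limma, also 0 lower at an unadjusted p under 0.05 (33.3% higher, against 8.27% of all genes), with a median of 0.43. Ube2c went from 269 ± 52.2 to 781 ± 138 (1.49 ± 0.16), Aurkb from 515 ± 115 to 1205 ± 48.5 (1.23 ± 0.16) and Plk1 from 844 ± 224 to 1660 ± 245 (0.99 ± 0.16). The proliferation count was 15 after quantile normalisation and 3, 16, 6 and 2 with each mouse left out. The part of this shift in the members' differences was not tested.

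**Figure D4:**
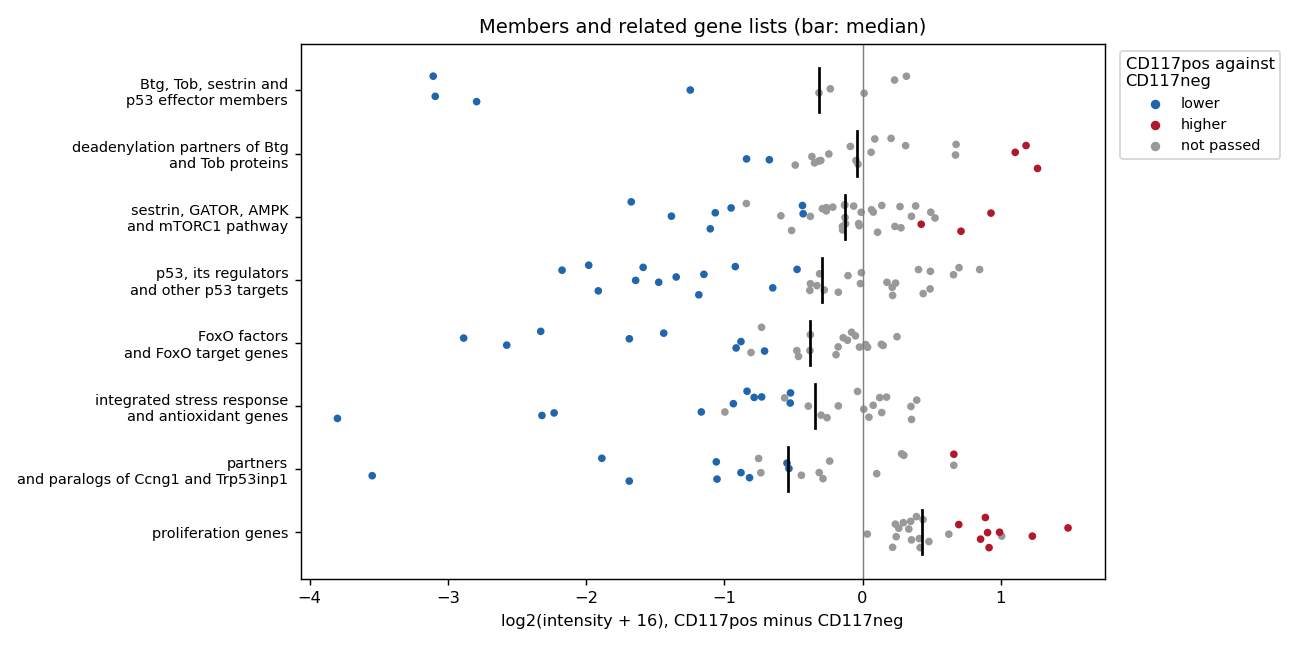
Log2 difference, CD117pos minus CD117neg, of every measured gene of the members and of 7 related lists, coloured by its call, with a bar at the median. The 4 lower members lie between -3.11 and -1.25, the p53, FoxO, stress and Ccng1 or Trp53inp1 partner lists have medians below 0, and the proliferation list has a median of 0.43.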

How the data were processed

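Column-purified polyA RNA was biotin-labelled after 2 cycles of amplification and hybridised to Affymetrix arrays, per the labels' protocols. The authors deposited 1 linear intensity for each of 45101 probe sets on each of 8 arrays. For the software of summarising and scaling, the sources used here give no name. Array medians lay between 27.5 and 32.8, and 841 to 898 values per array were exactly 1, so differences between very low intensities carry little information. Arrays have no read depth, and their number limits the precision. Of the 45037 probe sets other than the 64 controls, 34945 had 1 symbol in the platform annotation, 932 had several and 9160 had none listed. Gene identifiers of 34741 of the first were found in a RefSeq gene table (GRCm38.p6), and 0 symbols needed updating.

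Differences of log2(intensity + 16) were fitted two-sided by lmFit and eBayes of limma 3.58.1 (R 4.3.3) with the mouse as a block, over 18193 genes and, separately, over 45037 probe sets, with Benjamini-Hochberg adjustment and a threshold of 0.05. The fit was tested on simulated data. The block follows from the design text, and deviations from fraction means correlated across genes within a mouse at 0.12 to 0.27, against at most 0.11 with another mouse. The 10 genes, 7 pathway lists, 8 marker lists and 14 alternatives were chosen with earlier results of these data known. Genes named are all members, Kit, up to 3 genes per pathway list (those past the threshold and moving 1 way in all 4 mice, by size of change), the marker genes past it, and the 5 genes most like the members with the largest and the smallest difference. Of the myeloid markers past the threshold, only Csf1r, Lyz2, Spi1 and Mpo are named, chosen by no stated rule. Cd3e, Pax5, Cd8a, Thy1, Pdgfrb and Ccng2 were named after their values were seen. Figures were drawn with matplotlib 3.10.9.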

Additional observations from a re-analysis of the deposited data

Results flagged for a closer look

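In each group of 4 values of the 25 probe sets (both fractions and the difference), the gap of the highest or lowest value to its nearest neighbour was set against the range of the group (Dixon's ratio, at its 95% critical value). Of 75 groups, 9 passed the limit, while chance passes about 1 in 20. The groups are not independent, because each difference is built from both fractions and some genes have several probe sets. The 1 in 20 is therefore only a rough guide. Mouse _951 gave 6 of the 9.

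Sesn2 (1425139_at) measured 2944 in the CD117pos cells of mouse _951, against 252 to 449 in the other CD117pos arrays. Sesn3 (1449303_at) measured 315 there, against 17.6 to 40.4, and its difference was 2.91, against -1.06 to -0.87. Tob2 (1417310_at) measured 1602 there, against 222 to 268, and its difference was 2.79, against 0.09 to 0.30. Btg1 (1426083_a_at) measured 566 there, against 1135 to 1192. In this array the T cell marker genes Cd8a and Thy1 measured 537 and 245, and the stromal gene Pdgfrb 551, with Cd3e at 4.96. Cd8a, Thy1 and Pdgfrb lay 2.79, 2.85 and 4.13 log2 units above the mean of the other CD117pos arrays. The other T cell markers lay from -0.33 to 0.72 on that measure, and the other stromal and endothelial markers from -0.55 to 1.44. The markers named here were chosen after their values were seen, and their part in the sestrin values was not tested.

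In the CD117neg arrays, Btg1 (1426083_a_at) measured 3791 in mouse _952, against 3264 to 3343 in the others. Tob2 (1417309_at) measured 207 in mouse _948, against 129 to 140. Sesn1 (1444376_at) measured 38.4 in mouse _952, against 43.6 to 44.4.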

How the results depend on the processing

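Btg1, Btg2, Tob1 and Trp53inp1 stayed lower and past the threshold in all 14 alternatives, with log2 differences of -2.70 to -1.04, -3.27 to -2.75, -3.10 to -1.70 and -3.28 to -1.98. Without the replicate block, 4 members and 10 probe sets were lower and 0 higher, and no member's call changed. Leaving out a mouse gave 4 to 5 lower members and 7 to 11 lower probe sets. Differences that changed sign belonged to genes that had not passed. Sesn1 was 0.33 without probe sets that end in _a_at, _s_at or _x_at. Sesn2 was -0.56 with the mean of its probe sets, -0.44 (without mouse _951) to 0.55 when each mouse was left out, and -0.52 without its CD117pos array and the block. Sesn3 was -0.14 with a pseudocount of 1, -0.15 with the mean of its probe sets, -0.96 (without mouse _951) to 0.37 when each mouse was left out, and -0.74 without its CD117pos array and the block. The Sesn1 probe set 1438931_s_at was 0.074 after quantile normalisation, 0.00024 after centring and -0.38 to 0.085 when each mouse was left out. The Ccng1 probe set 1450016_at was 0.15 after quantile normalisation, 0.048 after centring, -0.18 to 0.13 when each mouse was left out, and 0.20 without its CD117pos array and the block. Beyond the removed arrays and probe sets, the cause was not tested. Over all genes, the counts ran from 1181 to 2983 lower and 416 to 2106 higher when each mouse was left out. No gene of the NK cell, erythroid and megakaryocyte lists was left above a mean intensity of 50. Probe set counts were not run with gene means or without the probe sets that end in _a_at, _s_at or _x_at, nor mouse terms without the block.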
